A study of Mus musculus with 7 samples.

Results

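Sialyltransferases are Golgi enzymes that add sialic acid to the ends of glycans, and 10 of their genes are described here in regulatory T (Treg) cells of the allergic lung. They are St8sia6, St8sia1, St8sia4, St6gal1, St3gal1, St3gal2, St3gal4, St3gal6, St6galnac4 and St6galnac6, taken by symbol from the normalised counts of 7 RNA-seq libraries. The files hold 19736 gene entries, of which 19 are sialyltransferases, so the 10 are not the whole family. All 10 were present and passed the filter on low values, which asked for 10 normalised counts in 3 or more libraries and was passed by 14582 genes. St8sia6 was selected on these same values, because it stood among the genes of smallest p that were lower in CCR6+ cells, and its relatives were chosen by family with their values known. Their group differences are therefore given as a description, and no test of them is read as evidence. The calls of fits over all genes are printed for them only beside the shares over all genes.

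The comparison is between 3 libraries of CCR6+ Foxp3EGFP+ cells and 4 of CCR6- Foxp3EGFP+ cells, where EGFP reports the Treg transcription factor Foxp3 and CCR6 is a chemokine receptor that binds CCL20. Both groups carry Il4raR576, a variant of the gene for the interleukin 4 receptor alpha chain, so no library of cells with another Il4ra allele enters the comparison. The cells were sorted from total lung digests of female mice, 5 to 7 weeks old, which received 100 µg of ovalbumin by intraperitoneal injection, a second injection 2 weeks later, and an aerosol of 1% ovalbumin for 30 min daily on 3 days from day 29, with the lungs taken on day 32. Whether each library stands for its own mouse or for a pool is not given in the labels. The errors and p-values therefore reflect library-to-library spread alone, part or all of which may be technical.

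Sialic acid is linked to galactose, to N-acetylgalactosamine or to another sialic acid, and the gene names follow the linkage. The ST3GAL and ST6GAL enzymes cap galactose, the ST6GALNAC enzymes act on N-acetylgalactosamine of O-glycans or glycolipids, and the ST8SIA enzymes extend an existing sialic acid into di-, oligo- or polysialic acid. On T cells such caps mask galactose from galectins, form part of the ligands of selectins and serve as ligands of the Siglec receptors of other leukocytes.

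The recovered reads ranged from 11607780 to 35182288 in CCR6+ libraries and from 31083571 to 47261246 in CCR6- libraries. CCR6+ replicate 2 had the fewest reads and yet the smallest share of genes at 0, with 2.16% against 6.89% to 29.7% in the other libraries. Its summed level over 13 epithelial markers was 81990 normalised counts, against 3567 and 12014 in the other CCR6+ libraries and 1906 to 10103 in CCR6- libraries, and over 12 endothelial and stromal markers it was 65391, against 6280.2 and 10314, and 5546 to 8574. No marker of these lists was at 0 in it, whereas Scgb3a2, Nkx2-1 and Foxj1 were at 0 in CCR6- replicate 4. Over 11 T cell markers its sum was 128059, the lowest of the 7, and over 8 Treg markers it was 56406, against 140823 to 205042 in the others. No Treg marker was at 0 in any library. Foxp3 stood at 50875, 12206 and 37258 normalised counts in CCR6+ replicates 1 to 3, and at 39097, 30878, 36186 and 19376 in CCR6- replicates 1 to 4. Ccr6, the gene sorted on, stood at 7309, 2750.1 and 6406 in CCR6+ libraries and at 909, 851, 439 and 271 in CCR6- libraries. The log2 differences of the 10 genes below are given with and without CCR6+ replicate 2.

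St8sia6 encodes the enzyme that adds a further sialic acid to sialylated O-glycans. In mice its disialic acid products are ligands of the inhibitory receptor Siglec-E. St8sia6 stood at 2629.8, 2427 and 2107 normalised counts in CCR6+ replicates 1 to 3, and at 7357, 6257, 7012 and 8340.4 in CCR6- replicates 1 to 4. Every CCR6+ library lay below every CCR6- library, and the gap between the groups, from 2629.8 to 6257, was wider than the range within either. The mean level in CCR6+ cells was 0.330 times that in CCR6- cells, a log2 difference of -1.60 (SE 0.17), CCR6+ minus CCR6- on the scale of log2(normalised count + 1). It was -1.61 (SE 0.20) without CCR6+ replicate 2. Both groups were tight, with a coefficient of variation of 11.0% in CCR6+ and 11.9% in CCR6- libraries. The values rest on 1067 to 12323 reads per library.

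**Figure D1:**
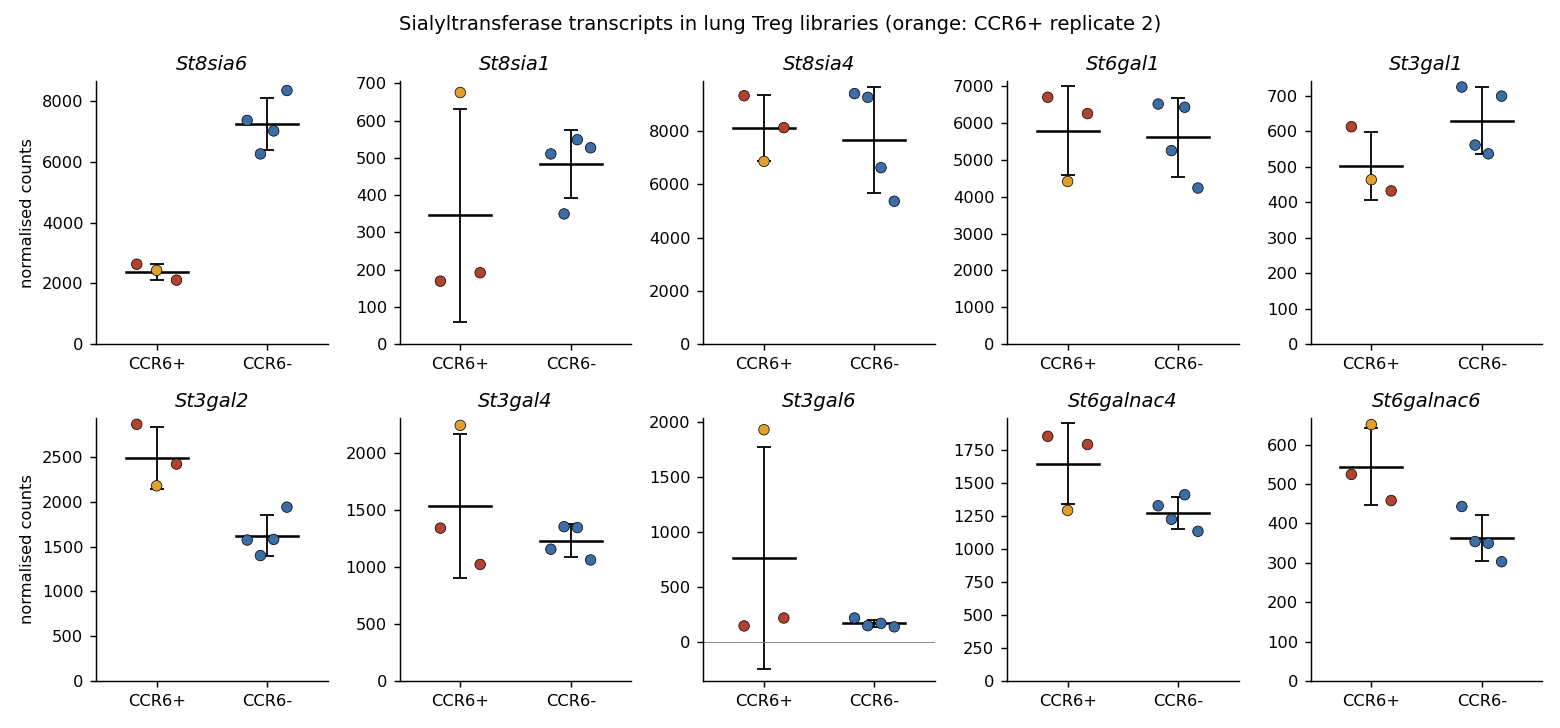
Normalised counts of the 10 sialyltransferase genes in CCR6+ (left, red, with CCR6+ replicate 2 in orange) and CCR6- libraries (right, blue), with 1 point per library and the mean ± SD of each group in black; each panel has its own linear axis. St8sia6 lies between 2107 and 2629.8 in CCR6+ and between 6257 and 8340.4 in CCR6- libraries, while St3gal6 stands at 1934 in CCR6+ replicate 2 alone, so that the lower SD bar of that group reaches below 0.

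St8sia6 lies on mm10 chromosome 2, from 13651021 to 13794064 on the minus strand, and is annotated as protein coding. Of its exonic bases, 1.46% overlap a gene on the opposite strand. Among the 5787 genes with a mean of at least 1000 normalised counts, 5 had a lower log2 difference than St8sia6. They were Gpr83 (-2.24, SE 0.53), 1110032F04Rik (-1.85, SE 0.48), Bcl2 (-1.82, SE 0.40), Ntn4 (-1.73, SE 0.67) and Lad1 (-1.69, SE 0.76), named here after their values were seen. The groups did not overlap for 4 of these 5 genes and overlapped for Lad1. St8sia6 was selected on this same contrast, so its place in this order follows in part from that choice and nothing is read from it. As a share of the summed level of the 11 T cell markers, St8sia6 was at 1.11%, 1.90% and 0.912% in CCR6+ libraries, and at 3.39%, 2.66%, 3.02% and 2.73% in CCR6- libraries, with no overlap. As a share of the 8 Treg markers it was at 1.28%, 4.30% and 1.27% in CCR6+ libraries, and at 4.66%, 4.13%, 4.58% and 5.92% in CCR6- libraries. On that scale CCR6+ replicate 2 lay within the CCR6- range and the other CCR6+ libraries far below it. In bulk libraries fewer cells that express a gene and less RNA per cell cannot be told apart.

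The other ST8SIA genes gave different pictures. St8sia1 encodes GD3 synthase, which makes the ganglioside GD3 from GM3. It was low, at 169, 676 and 192 normalised counts in CCR6+ replicates 1 to 3, and at 511, 349.7, 549 and 527 in CCR6- libraries. Replicates 1 and 3 of the CCR6+ group lay below all CCR6- libraries and replicate 2 above all of them. The log2 difference was -0.77 (SE 0.52) with all 7 libraries and -1.40 (SE 0.25) without CCR6+ replicate 2. CCR6+ replicate 2 is also the library with the highest epithelial and endothelial marker sums, and the part of those cells in its St8sia1 level was not tested. St8sia4 encodes a polysialyltransferase, whose polysialic acid on CCR7 of mouse dendritic cells is needed for sensing of the chemokine CCL21. It stood at 9334, 6867 and 8134 normalised counts in CCR6+ libraries, and at 9413, 9274, 6631 and 5369.8 in CCR6- libraries. The groups overlapped over almost their whole range. The log2 difference was 0.11 (SE 0.26), or 0.22 (SE 0.30) without CCR6+ replicate 2. Its sign changed when the replicate number was a block and when CCR6- replicate 4 was left out, and no direction is given. Both gave -0.05 and count as 1 estimate, since no other library carries the number 4.

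The upstream windows of these 3 genes are shown because genes of 1 subfamily, whose enzymes all add sialic acid to sialic acid, had unlike values between the groups. They were read from RefSeq promoter records on GRCm38.p6, the assembly of mm10, in which 8 of the 10 genes were found, and the sequence of a window runs 5′ to 3′ on the strand of the gene. Capitals mark the motifs that were searched on both strands in the 250 bases before the start, namely CTTTGA of TCF and LEF factors, GTAAACA of forkhead factors, AGGTCA of ROR receptors, TTCNNNGAA of STAT factors and the GC box GGGCGG. For St8sia6 only the 30 bases around its single match are shown, since its window lies in the untranslated part of an exon of the GENCODE gene model.
St8sia6, chr2:13793565-13793594, minus strand: ccgcgccaccgcCTTTGAacgctgggggtg
St8sia1, chr6:142964453-142964702, minus strand: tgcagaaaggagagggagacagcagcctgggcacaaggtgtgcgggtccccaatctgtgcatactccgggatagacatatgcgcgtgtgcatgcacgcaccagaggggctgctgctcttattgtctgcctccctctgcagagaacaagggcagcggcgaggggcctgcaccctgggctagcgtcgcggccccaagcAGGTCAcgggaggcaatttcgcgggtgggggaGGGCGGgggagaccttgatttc
St8sia4, chr1:95667595-95667844, minus strand: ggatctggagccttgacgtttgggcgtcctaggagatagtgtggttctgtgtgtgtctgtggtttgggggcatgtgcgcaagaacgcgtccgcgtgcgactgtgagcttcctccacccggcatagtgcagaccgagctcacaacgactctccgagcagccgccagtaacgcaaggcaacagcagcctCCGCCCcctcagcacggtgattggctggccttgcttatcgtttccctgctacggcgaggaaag

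The window of St8sia6 held CTTTGA from 62 to 57 bases before the start, a hexamer found in 13.8% of the 32851 promoter windows of the mouse table. That of St8sia1 held AGGTCA, found in 14.02% of all windows, and GGGCGG, found in 32.7%. That of St8sia4 held the reverse complement of GGGCGG. None of the 11 windows of the 8 genes held TTCNNNGAA, found in 7.02% of all windows. All 3 windows were rich in G and C, with 70.8% in St8sia6, 63.6% in St8sia1 and 60.4% in St8sia4, against a median of 52.4% over all windows. These matches describe the letters only.

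The enzymes that cap galactose were led by St6gal1, whose alpha-2,6 linked product on N-glycans is the ligand of CD22. St6gal1 stood at 6693, 4411 and 6249.8 normalised counts in CCR6+ libraries, and at 6509, 5247, 6421 and 4233 in CCR6- libraries. The groups covered the same range, with a log2 difference of 0.045 (SE 0.25), or 0.23 (SE 0.24) without CCR6+ replicate 2. Its sign changed in 7 of the 21 other settings, and no direction is given. St3gal1 caps the core 1 O-glycan, the step whose loss exposes the peanut agglutinin ligand on T cells. It stood at 613, 464 and 432 in CCR6+ libraries, and at 725, 562, 537 and 699.8 in CCR6- libraries, with CCR6+ replicate 1 within the CCR6- range. On the log2 scale the difference was -0.33 (SE 0.21), -0.28 (SE 0.24) without CCR6+ replicate 2 and -0.76 with quantile normalization.

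St3gal2, which acts on core 1 chains and on gangliosides, ran the other way. It stood at 2869, 2181 and 2425 normalised counts in CCR6+ libraries, and at 1576, 1402, 1583 and 1943 in CCR6- libraries. All CCR6+ libraries lay above all CCR6- libraries, with a gap between 2181 and 1943 that was smaller than the range within either group. This was a log2 difference of 0.62 (SE 0.19), a level in CCR6+ cells 1.53 times that in CCR6- cells, and 0.71 (SE 0.20) without CCR6+ replicate 2. Within each library the level of St3gal2 over that of St3gal1, per kilobase of exon, was 6.36, 6.39 and 7.62 in CCR6+ cells, and 2.95, 3.39, 4.01 and 3.77 in CCR6- cells. St3gal2 lies on chromosome 8, from 110919922 to 110972480 on the plus strand, and no exonic base of it overlaps another gene.

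St3gal4 and St3gal6 cap lactosamine chains and contribute to selectin ligands of leukocytes. St3gal4 stood at 1339, 2241 and 1021 normalised counts in CCR6+ libraries, and at 1155, 1352, 1344 and 1061 in CCR6- libraries. CCR6+ replicate 2 was the highest and replicate 3 the lowest of the 7. On the log2 scale the difference was 0.25 (SE 0.29) with all libraries and -0.063 (SE 0.21) without CCR6+ replicate 2. St3gal6 stood at 150.3, 1934 and 222 in CCR6+ libraries, and at 222, 152, 174 and 142 in CCR6- libraries. Its level in CCR6+ replicate 2 was 8.70 times the highest of the other 6 libraries, which all lay between 142 and 222. The log2 difference was 1.24 (SE 0.87) with all libraries and 0.10 (SE 0.28) without CCR6+ replicate 2, and DESeq2 gave no adjusted p for this gene. In the same library the epithelial, endothelial and stromal marker sums were the highest of the 7. Of the exonic bases of St3gal6, 26.0% overlap Dcbld2 on the opposite strand, which stood at 169, 692 and 166 normalised counts in CCR6+ libraries and at 114, 104, 109 and 31.8 in CCR6- libraries. The part of either in the level of St3gal6 was not tested. For St3gal4, 14.1% of the exonic bases overlap a gene on the opposite strand.

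**Figure D2:**
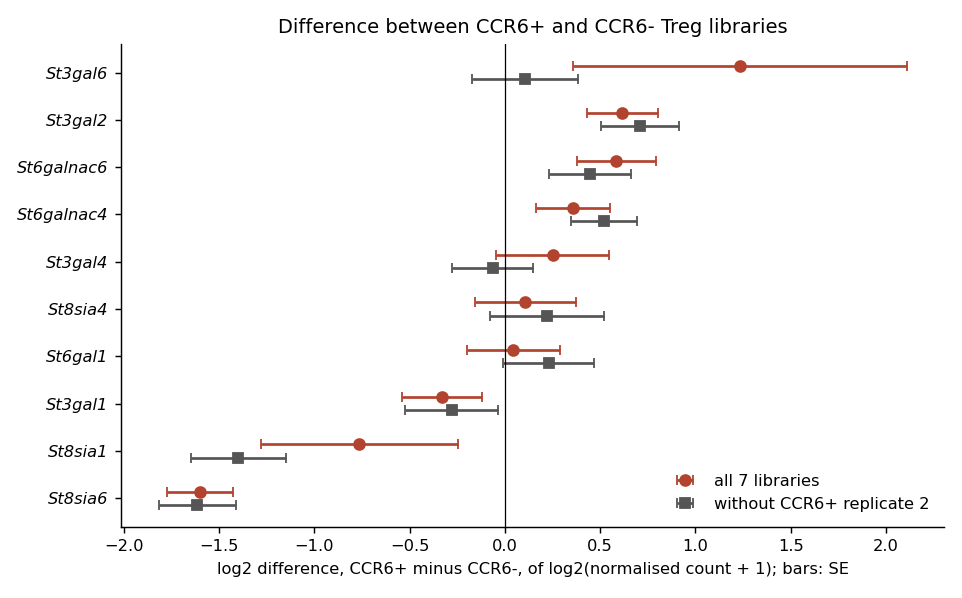
Log2 differences of the 10 sialyltransferase genes, CCR6+ minus CCR6-, on the scale of log2(normalised count + 1), with SE bars, for all 7 libraries (red circles) and without CCR6+ replicate 2 (grey squares). St8sia6 stays at -1.60 and -1.61, St8sia1 moves to -1.40 from -0.77 and St3gal6 to 0.10 from 1.24 when that library is left out.

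The ST6GALNAC genes of the list are neighbours on chromosome 2. St6galnac4, from 32587095 to 32599698, encodes the enzyme that turns sialyl-T into disialyl-T on O-glycans. St6galnac6, from 32599709 to 32620806, encodes an enzyme of alpha-series gangliosides. Both are on the plus strand with 10 bases between the gene models, so reads that run past the end of St6galnac4 may not have been separable from those of St6galnac6. St6galnac4 stood at 1857, 1294 and 1795 normalised counts in CCR6+ libraries, and at 1329.8, 1226, 1413 and 1136 in CCR6- libraries. CCR6+ replicates 1 and 3 lay above all CCR6- libraries and replicate 2 among them. This gave a log2 difference of 0.36 (SE 0.19), or 0.52 (SE 0.17) without CCR6+ replicate 2. St6galnac6 stood at 524, 651 and 458 in CCR6+ libraries, and at 443, 354, 349 and 303 in CCR6- libraries, with no overlap but a narrow gap, between 458 and 443. The difference on the log2 scale was 0.58 (SE 0.21), or 0.45 (SE 0.21) without CCR6+ replicate 2, and 0.26 with quantile normalization.

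Of the 10 genes, 1 was lower in CCR6+ cells with no overlap between the groups (St8sia6) and 2 were higher (St3gal2 and St6galnac6). Over all genes tested the groups did not overlap for 5.53% lower and 7.96% higher in CCR6+. Without CCR6+ replicate 2 the counts were 2 lower (St8sia6 and St8sia1) and 3 higher (St3gal2, St6galnac4 and St6galnac6), where the shares over all genes were 8.62% and 10.5%. Limma called none of the 10 and 0% of all genes at an adjusted p of 0.05. EdgeR on the recovered reads also called none of the 10, against 0.0137% of all genes. DESeq2 on the recovered reads called St8sia6 lower and St3gal2 higher, where it called 0.933% of all genes lower and 3.72% higher. Without CCR6+ replicate 2 it called St8sia6 and St8sia1 lower and St3gal2 higher, against 0.549% and 0.713% of all genes. At an unadjusted p of 0.05 limma had 1 of the 10 lower and 2 higher, against 2.35% and 8.22% of all genes. As the list was made with this contrast known, nothing is read from these counts.

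Levels of different genes are comparable only per length. Divided by the kilobases of all annotated exons, St6gal1 had the highest mean in both groups, at 1177 ± 246 normalised counts per kilobase in CCR6+ (SD, n = 3) and 1140 ± 220 in CCR6- libraries (SD, n = 4). St8sia6 was the fifth of the 10 in CCR6+ cells, at 312 ± 34.4, and the second in CCR6- cells, at 945 ± 113. In CCR6+ cells it was followed upwards by St8sia4 at 404 ± 61.4, St3gal2 at 494 ± 69.2 and St3gal4 at 525 ± 216. The ranges over the libraries overlapped from each to the next. Within every CCR6+ library, however, St8sia6 lay below St8sia4 and St8sia4 below St3gal2, while St3gal4 was above St3gal2 in replicate 2 only. Without CCR6+ replicate 2 the mean of St3gal4 was 404 and it was the fourth, below St8sia4 at 435 and St3gal2 at 525, while St8sia6 was still the fifth at 309. In CCR6- cells St6gal1 and St8sia6 did not differ beyond their spread, and St8sia6 was above St6gal1 in CCR6- replicate 4. St3gal4 at 420 ± 49.3 and St8sia4 at 382 ± 99.5 came next and overlapped each other, then St3gal2 at 323 ± 45.1, which overlapped both. St3gal2 was below both in CCR6- replicates 1 to 3 and above both in replicate 4. St6galnac4 was the sixth in both groups, at 254 ± 47.6 in CCR6+ and 197 ± 18.7 in CCR6- cells. St3gal1, St6galnac6, St8sia1 and St3gal6 held the lowest places, with means of 37.0 to 124.5 in CCR6+ cells and of 27.98 to 92.1 in CCR6- cells. The highest of these in CCR6+ cells, St3gal6, had a mean of 30.2 and the ninth place without CCR6+ replicate 2.

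This order depends on the length used, because the exons of St8sia4 come to 20.1 kilobases and its coding sequence to 1.08. Per kilobase of coding sequence St8sia4 was the first in both groups, at a mean of 7525 in CCR6+ and 7117 in CCR6- cells, while St8sia6 was the fourth in CCR6+ cells, at 2000.1, and again the second in CCR6- cells, at 6065. In CCR6- replicate 4 St8sia6 was above St8sia4 by this length, with 33.3% of the sum of the 10 genes against 23.8%. St8sia4 was above it in CCR6- replicates 1 to 3, narrowly in replicate 3, at 26.8% against 25.6%. The level of St8sia6 over that of St8sia4, per kilobase of exon, was 0.739, 0.927 and 0.679 in CCR6+ libraries, and 2.05, 1.77, 2.77 and 4.07 in CCR6- libraries.

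**Figure D3:**
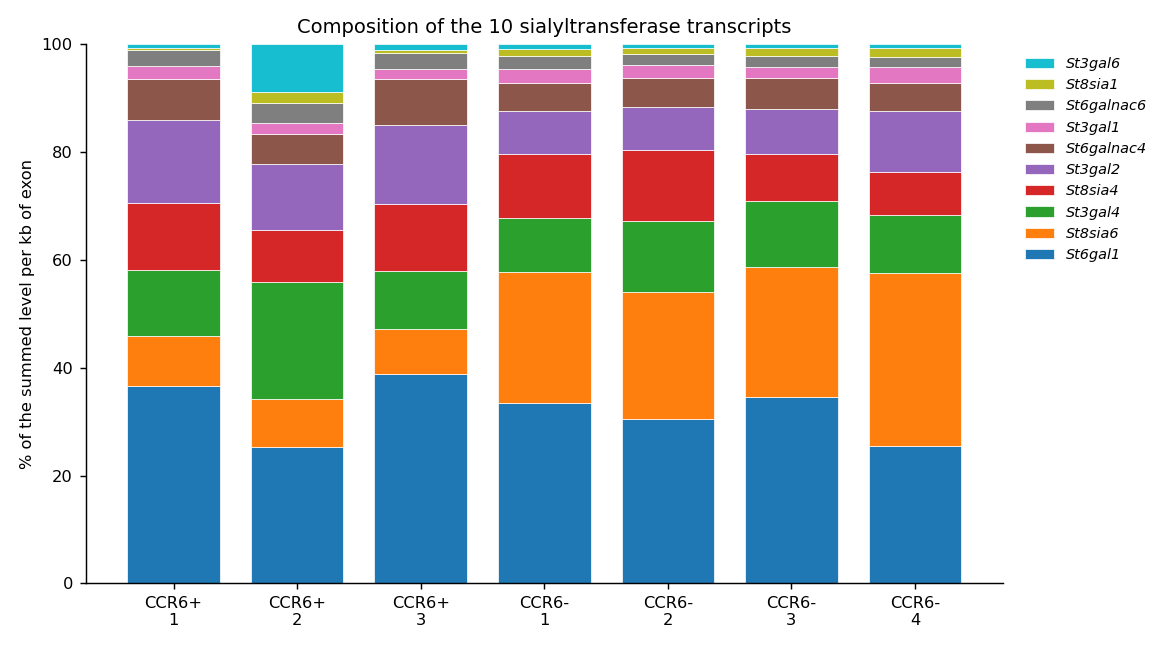
Share of each gene in the summed level per kilobase of exon of the 10 sialyltransferase genes, in percent, with 1 bar per library, CCR6+ replicates 1 to 3 on the left and CCR6- replicates 1 to 4 on the right. The share of St8sia6 (orange) is 8.40% to 9.21% in CCR6+ and 23.4% to 32.2% in CCR6- libraries, and that of St3gal6 (cyan) reaches 8.84% in CCR6+ replicate 2 only.

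Summed over the 10 genes, the level per kilobase of exon was 3724, 3543 and 3273 in CCR6+ libraries, and 3954, 3493, 3781 and 3385 in CCR6- libraries. The sums of the groups overlapped. St8sia6 made up 8.85% ± 0.41 of the sum in CCR6+ (SD, n = 3) and 26.0% ± 4.12 in CCR6- libraries (SD, n = 4). Per kilobase of coding sequence the shares were close to these, at 9.19% ± 0.62 in CCR6+ and 26.3% ± 4.86 in CCR6- libraries. St3gal2 made up 14.1% ± 1.63 of the exon-based sum in CCR6+ and 8.89% ± 1.68 in CCR6- libraries.

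The genes whose pattern over the 7 libraries was most like that of St8sia6 were found by the root mean square difference between log2 profiles scaled to unit variance, where 0 means the same pattern. The comparison covered 12011 genes with a mean of at least 50, and left out unnamed transcripts (Gm numbers and Rik) and symbols read as dates. Of these genes the nearest were Edrf1 at 0.223, Rrn3, an initiation factor of RNA polymerase I, at 0.253, Uhrf1, which maintains DNA methylation at replication, at 0.254, Wdr3 at 0.263 and Satb1, a chromatin organiser of T cells, at 0.284. Satb1 stood at 8707, 7607 and 9293 normalised counts in CCR6+ libraries, and at 18919.7, 16291.5, 24315 and 25126 in CCR6- libraries. The differences of Edrf1 and Rrn3 were much smaller in size than that of St8sia6, with log2 differences of -0.34 and -0.37. With the sign turned, the nearest were Rnase4 at 0.187, Ctsl at 0.197, Postn at 0.212, Klrb1f at 0.261 and Thnsl2 at 0.275. Among the other sialyltransferases St3gal1 was the nearest to St8sia6 at 0.740 and St8sia1 the next at 0.951, and the rest lay between 1.504 and 1.900. Both St3gal1 and St8sia1 had their lowest values in CCR6+ libraries, but St8sia1 also had its highest, 676 normalised counts, in CCR6+ replicate 2. Since the profile of St8sia6 separates the groups, this measure favours genes that do.

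The genes around these enzymes were read from 8 lists with 93 genes other than the 10, of which 89 were tested. Limma called 0 of the 89 in either direction, and edgeR 0. At an unadjusted p of 0.05 limma had 11 higher (12.4%) and 3 lower (3.37%), against 8.22% and 2.35% of all genes tested. Non-overlapping groups were seen for 12 of them, 13.5%, with CCR6+ above and for 6, 6.74%, with CCR6+ below, against 7.96% and 5.53% of all genes. DESeq2 called 7 higher (7.87%) and 3 lower (3.37%), against 3.72% and 0.933%, and without CCR6+ replicate 2 it called 0 higher and 2 lower, Ccr7 among them, against 0.713% and 0.549% of all genes. The lists were drawn up with these results known.

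**Figure D4:**
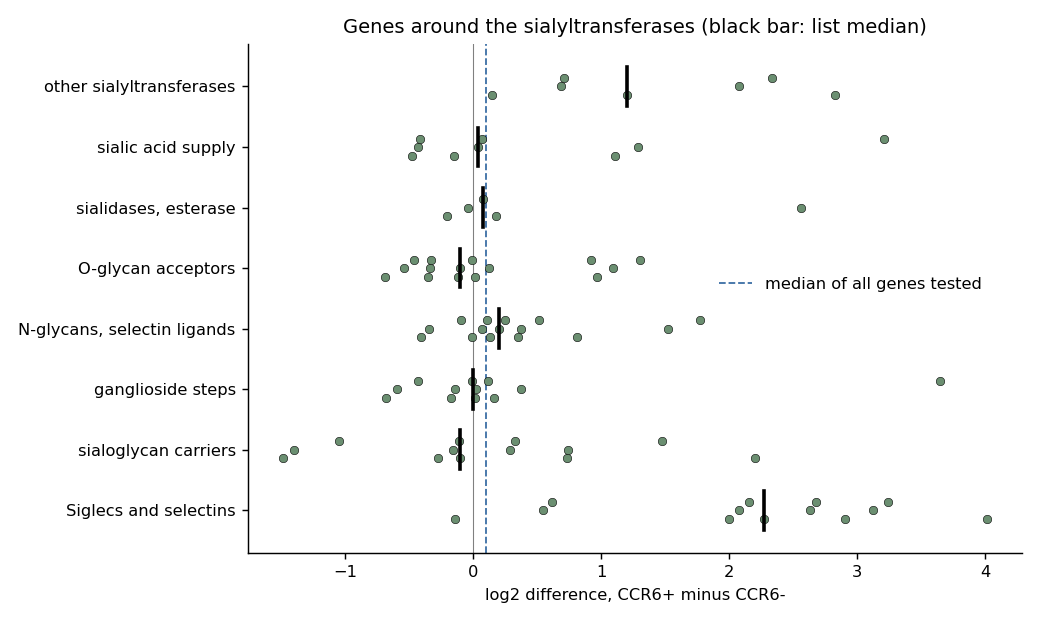
Log2 differences, CCR6+ minus CCR6-, of the tested genes of 8 lists around the sialyltransferases, with 1 point per gene, a black bar at each list's median and a dashed line at the median of all genes tested, 0.097. The medians of the Siglecs and selectins (2.27) and of the other sialyltransferases (1.20) lie farthest to the right. Both lists hold genes at 0 in some libraries.

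The other sialyltransferases had a median log2 difference of 1.20 over 7 tested genes, all positive, or 0.72 without CCR6+ replicate 2, against medians of 0.097 and 0.037 over all genes. All 13 epithelial and all 12 endothelial and stromal markers had positive log2 differences too, with medians of 2.10 and 2.82. Those medians came to 0.63 and 1.51 once CCR6+ replicate 2 was left out, and the part of those markers' cells in the values of these sialyltransferases was not tested. Of the 8 genes of the other sialyltransferase list in the files, 5 were at 0 in at least 1 library. Their mean log2 level was 3.482, 8.289 and 7.059 in CCR6+ replicates 1 to 3, and 4.607, 4.566, 5.736 and 4.066 in CCR6- replicates 1 to 4. CCR6+ replicate 1 was thus the lowest of the 7 libraries on that scale. St3gal3, which caps lactosamine chains, stood at 409.8, 462 and 610.1 normalised counts in CCR6+ libraries, and at 323, 288, 327 and 276 in CCR6- libraries, with no overlap (limma adjusted p = 0.435). Its log2 difference was 0.68 (SE 0.19), 0.72 (SE 0.23) without CCR6+ replicate 2 and 0.15 with quantile normalization. St6galnac3, an enzyme of O-glycans and gangliosides, stood at 430.4, 1335 and 783 in CCR6+ libraries, and at 293, 369, 342 and 335 in CCR6- libraries, a log2 difference of 1.20 (SE 0.38, limma adjusted p = 0.444), or 0.80 (SE 0.29) without CCR6+ replicate 2. DESeq2 called it higher with all libraries (adjusted p = 0.0338) and not without CCR6+ replicate 2 (adjusted p = 0.283). St8sia2, the other polysialyltransferase, stood at 0, 541 and 151 in CCR6+ libraries and at 0.946, 19.9, 34.02 and 0 in CCR6- libraries (limma adjusted p = 0.611).

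The supply of sialic acid gave no common direction, with 5 of 9 genes positive and a median log2 difference of 0.035, which turned to -0.019 without CCR6+ replicate 2. Cmas, which activates sialic acid to the CMP sugar that all these enzymes use, stood at 5498, 3615 and 5660.1 normalised counts in CCR6+ libraries, and at 5783, 6442, 6153 and 9027 in CCR6- libraries. The groups did not overlap, and the log2 difference was -0.48 (SE 0.25, limma adjusted p = 0.504), or -0.27 (SE 0.24) without CCR6+ replicate 2. Cmah, which hydroxylates CMP-sialic acid in mice, had one of -0.44 (SE 0.20, limma adjusted p = 0.484), or -0.30 (SE 0.21) without CCR6+ replicate 2. Renbp, which binds renin and interconverts N-acetylglucosamine and N-acetylmannosamine, stood at 387, 635 and 388 in CCR6+ libraries, and at 146, 215, 154 and 253 in CCR6- libraries, a log2 difference of 1.28 (SE 0.30, limma adjusted p = 0.394), or 1.05 (SE 0.29) without CCR6+ replicate 2. DESeq2 called Renbp higher (adjusted p = 0.0263), but not without CCR6+ replicate 2 (adjusted p = 0.228).

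In the list of sialidases and an esterase, which also holds Ctsa, 3 of 5 tested genes were positive. The median was 0.074, or 0.31 without CCR6+ replicate 2. The lysosomal sialidase Neu1 and its protective partner Ctsa had log2 differences of -0.21 (SE 0.24) and 0.17 (SE 0.23), with overlapping groups, or of -0.11 (SE 0.27) and 0.32 (SE 0.24) without CCR6+ replicate 2. Neu4 stood at 0, 685 and 94.4 normalised counts in CCR6+ libraries, and at 7.57, 0, 34.9 and 6.09 in CCR6- libraries. The limma adjusted p of these 3 genes was between 0.627 and 0.717.

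The enzymes that build the O-glycan acceptors had a median of -0.11, with 6 of 15 positive, or of -0.095 without CCR6+ replicate 2. Gcnt1, which makes the core 2 branch that carries selectin ligands, stood at 906, 1021 and 779.6 normalised counts in CCR6+ libraries, and at 515, 389, 635 and 349 in CCR6- libraries. Its groups did not overlap, with a log2 difference of 0.97 (SE 0.26, limma adjusted p = 0.427), or 0.87 (SE 0.30) without CCR6+ replicate 2. DESeq2 called it (adjusted p = 0.0436), but not without CCR6+ replicate 2 (adjusted p = 0.283). Galnt7 and Galnt10, of the enzymes that start O-glycans, had log2 differences of -0.34 (SE 0.18, limma adjusted p = 0.510) and -0.69 (SE 0.37, limma adjusted p = 0.506), or of -0.36 and -0.66 without CCR6+ replicate 2.

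Among the 15 genes of N-glycan branches and selectin ligands, 11 were positive and the median was 0.20, or 0.17 without CCR6+ replicate 2. The galactosyltransferase B4galt4 stood at 331, 835 and 312 normalised counts in CCR6+ libraries, and at 158, 188, 112 and 82.6 in CCR6- libraries, a log2 difference of 1.77 (SE 0.46, limma adjusted p = 0.419), or 1.31 (SE 0.37) without CCR6+ replicate 2. DESeq2 called it higher (adjusted p = 0.0187), and without CCR6+ replicate 2 its adjusted p was 0.2095. The branching enzyme Mgat4b had a log2 difference of 0.81 (SE 0.26, limma adjusted p = 0.449) and the core fucosyltransferase Fut8 one of 0.37 (SE 0.23, limma adjusted p = 0.538), both with groups that did not overlap. These were 0.65 and 0.41 without CCR6+ replicate 2.

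The ganglioside steps had a median of -0.002, with 6 of 12 positive, and the median turned to 0.061 without CCR6+ replicate 2. B3galt4, which makes GM1, stood at 629.7, 539 and 729 normalised counts in CCR6+ libraries, and at 899, 1082, 892 and 1205 in CCR6- libraries. All CCR6+ libraries lay below all CCR6- libraries, with a log2 difference of -0.69 (SE 0.20, limma adjusted p = 0.435), or -0.58 (SE 0.21) without CCR6+ replicate 2. DESeq2 called it lower (adjusted p = 0.0478), but not without CCR6+ replicate 2 (adjusted p = 0.358). B4galnt1, the GM2 synthase one step before it, had a log2 difference of -0.60 (SE 0.25, limma adjusted p = 0.471) and the lysosomal Hexa one of 0.37 (SE 0.24, limma adjusted p = 0.551). Leaving out CCR6+ replicate 2 gave -0.51 (SE 0.28) for B4galnt1 and 0.14 (SE 0.20) for Hexa.

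The carriers of sialylated glycans had a median of -0.11, with 6 of 13 positive, and the median turned to 0.079 without CCR6+ replicate 2. Ccr7, the receptor that St8sia4 acts on in dendritic cells, stood at 9468, 12749.8 and 17197 normalised counts in CCR6+ libraries, and at 26621, 25818, 58152 and 32217 in CCR6- libraries. All CCR6+ libraries lay below all CCR6- libraries, with a log2 difference of -1.40 (SE 0.37, limma adjusted p = 0.424), and of -1.40 (SE 0.45) without CCR6+ replicate 2. DESeq2 called it lower, with an adjusted p of 0.00178 and, without CCR6+ replicate 2, of 0.0133. Cd44, the hyaluronan receptor, had a log2 difference of 0.74 (SE 0.32, limma adjusted p = 0.478), or 0.89 (SE 0.37) without CCR6+ replicate 2.

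The Siglecs and selectins, lectins for these glycans, had a median of 2.27 with 12 of 13 positive, or 1.92 without CCR6+ replicate 2. Of the 13, 6 were at 0 in at least 1 library. Their mean log2 level was 4.927, 8.425 and 5.866 in CCR6+ replicates 1 to 3, and 5.304, 4.341, 4.475 and 2.86 in CCR6- replicates 1 to 4. Siglece, for the mouse receptor of St8sia6 products, stood at 53.3, 369 and 40.6 normalised counts in CCR6+ libraries, and at 10.4, 10.8, 13.8 and 11.5 in CCR6- libraries, a log2 difference of 2.91 (SE 0.76, limma adjusted p = 0.422), or 1.92 (SE 0.21) without CCR6+ replicate 2. Cd33 and Siglecg had log2 differences of 3.24 (SE 0.87, limma adjusted p = 0.4295) and 2.63 (SE 0.99, limma adjusted p = 0.465), or of 2.53 (SE 0.85) and 2.07 (SE 1.11) without CCR6+ replicate 2. DESeq2 called Siglece (adjusted p = 0.00684) and Cd33 (adjusted p = 0.0153) higher, but neither without CCR6+ replicate 2 (adjusted p = 0.393 and 0.302). These are genes of myeloid and B cells. The summed level of 12 macrophage and monocyte markers was 17940, 77067 and 9055 normalised counts in CCR6+ libraries, and 14443, 11876, 2309.9 and 939 in CCR6- libraries, with Adgre1 and Mrc1 at 0 in CCR6- replicate 4. That of 12 B cell markers was 7860.2, 8387 and 1993 in CCR6+ libraries, and 2917, 4518, 749 and 772 in CCR6- libraries, with Pax5 at 0 in CCR6- replicates 3 and 4. All 11 tested macrophage and all 12 B cell markers had positive log2 differences, and their part in the Siglec values was not tested.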

How the data were processed

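Per the labels' protocols, cDNA came from a SMART-Seq v4 kit and libraries from a KAPA Hyper Prep kit, with no mention of strand marking. The authors deposited a normalised signal for each gene, here called normalised counts. In each library every value is a whole multiple of 1 step (100% within 0.001 reads), and dividing by it gave the recovered reads. The submitters' processing notes name mm10, DESeq2 1.6.3, HTSeq 0.6.1p1 and STAR 2.5.1b, without saying what each did. No annotation, filter or strand setting is given in those sources. Of the 19736 entries, 2 symbols read as dates occur more than once.

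The 14582 genes reaching 10 normalised counts in 3 or more libraries were fitted on log2(value + 1) by limma 3.58.1 in R 4.3.3. The test was two-sided, had no covariate and used Benjamini-Hochberg adjustment over these genes at 0.05. EdgeR 4.0.16 and DESeq2 1.42.0 were run on the recovered reads with the same genes. The log2 scale with a pseudocount of 1 understates the change of low genes. Groups were called non-overlapping on the normalised counts. The members and gene lists were chosen with earlier results of these data known. Named beside the members are the 3 genes of smallest p per list with a mean of at least 50, and the 5 genes nearest to St8sia6 in pattern, in each sense. Marker lists are given by their sums, and 1 gene that this rule names is not reported here. Positions, 1-based, and lengths are from GENCODE mouse release 21. Alternatives were pseudocounts of 0.5 and 8, no filter, a mean of at least 100, equal totals, TMM, quantile normalization, arrayWeights, the replicate block, edgeR, DESeq2 and each library left out. EdgeR and DESeq2 without CCR6+ replicate 2 and gene-by-gene arrayWeights were chosen after seeing the data.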

Additional observations from a re-analysis of the deposited data

Results flagged for a closer look

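Among 59 sets of 4 CCR6- values, over the 10 genes, the other named genes and the marker sums, 4 had a single library set apart from its group. About 5% of sets are picked out by chance alone. None was a member of the list of 10, and the 3 CCR6+ libraries were too few to be examined in this way. In CCR6- replicate 4, the Galnt7 level was 3495 normalised counts while CCR6- replicates 1 to 3 had 2525 to 2596, Lck, a T cell kinase gene, at 97710, against 44520 to 48330, and Ctla4, an inhibitory receptor gene of Treg cells, at 21780, against 39980 to 41860. In CCR6- replicate 1, Cd33 stood at 115.4, against 20.3 to 22.99 in the others.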

How the results depend on the processing

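The log2 difference of St8sia6 was -1.60 and lay between -1.75 (arrayWeights) and -1.50 (quantile normalization) over the 21 other settings, and between -1.67 and -1.51 with 1 library left out. St8sia1, St3gal1, St3gal2, St3gal6, St6galnac4 and St6galnac6 kept their sign in all 21, while that of St8sia4 changed in 2, of St3gal4 in 5 and of St6gal1 in 7. The 21 are not all separate checks, as no filter and a mean of at least 100 leave a gene's log2 difference unchanged. The replicate block gave the same value as leaving out CCR6- replicate 4, the only library with that number. Over all genes limma called 0 higher and 0 lower. It called 1 higher with a pseudocount of 0.5 or TMM scaling, 2 higher with a pseudocount of 8 or a mean of at least 100, and 0 to 1 higher and 0 lower with 1 library left out. EdgeR called 2 higher with and without CCR6+ replicate 2. DESeq2 called 543 higher and 136 lower, and 104 and 80 without CCR6+ replicate 2. In the pathway lists DESeq2 called 7 higher and 3 lower, and 0 and 2 without that library. ArrayWeights called 1458 higher and 1028 lower, and 11 and 8 in the pathway lists, but its iteration stopped before it converged and gave CCR6+ replicate 3 a weight of 24.2, against 0.208 to 2.02 for the others. The gene-by-gene method called 31 higher and 5 lower, and 1 lower in the pathway lists. With the replicate number as a block, limma called 0 genes and the St8sia6 difference was -1.53. The deviations of same-numbered libraries from their group means correlated over genes at -0.128, -0.112 and 0.342 for numbers 1 to 3. With so few libraries the deviations within a group are tied to one another. These correlations therefore cannot decide whether the libraries were paired, and the main fit did not take the numbers as pairs. Causes of these shifts were not tested.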
